A study of Mus musculus with 8 samples.

Results

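Adipocytes carry cell-surface receptors that read metabolites, local mediators and circulating peptides, and 10 genes for such receptors were followed here: the free fatty acid receptors Ffar4 and Ffar2, the hydroxycarboxylic acid receptors Hcar1 and Hcar2, the succinate receptor Sucnr1, the adenosine receptor Adora1, the prostaglandin E2 receptors Ptger3 and Ptger4, and the natriuretic peptide receptors Npr1 and Npr3. The genes were taken by symbol from a table of 18088 genes. Of the 10, 9 had a row in the table, and each of those 9 passed the filter on low counts, so that none was removed by it. Ptger3, the prostaglandin E2 receptor that inhibits adenylyl cyclase, had no row and was not analysed here. The set was chosen with the result of the same comparison known, Ffar4 being among the largest decreases, so the values of the 9 genes below are given as a description and without a p-value.

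The libraries were poly(A) RNA sequencing of 3T3-L1 cells, a mouse preadipocyte line differentiated to adipocytes in culture. Mature adipocytes were detached, transfected in suspension with a pool of siRNAs against Erk3 (siErk3, 4 libraries) or with a nontargeting pool (siNTC, 4 libraries), and harvested 48 h later, both pools at 1.25 nM per square centimetre. Erk3 is the atypical MAP kinase encoded by Mapk6. The labels did not say whether the 4 libraries of a group came from separate cultures, so the errors and p-values measure the spread between these libraries, which may be technical, and in a bulk culture fewer cells of a type and less RNA per cell cannot be told apart.

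Lipolysis in adipocytes is driven by β-adrenergic receptors through cyclic AMP and protein kinase A. Receptors coupled to inhibitory G proteins, such as those for lactate, ketone bodies and adenosine, lower cyclic AMP and restrain it, and long-chain fatty acids act back on the cell through Ffar4. Not every gene of the set is antilipolytic by its coupling: Ptger4 raises cyclic AMP, Npr1 makes cyclic GMP, and Npr3 removes natriuretic peptides.

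Between 9854522 and 9943572 reads were counted per library. Mapk6 itself had 69.6 ± 4.80 CPM (reads scaled to the library total by TMM factors) in siErk3 cells and 579 ± 18.1 CPM in siNTC cells (SD, n = 4 each), and its log2 fold change was -3.06 (SE 0.06; edgeR quasi-likelihood test, Benjamini-Hochberg adjusted p = 2.09e-22). Of 17972 genes tested, 4275 were lower and 4470 higher in siErk3 cells at an adjusted p under 0.05, with a median log2 fold change of 0.001. Higher genes made up 51.1% of these calls, but 39.7% with upper-quartile factors and 65.1% with library sizes only. All 12 adipocyte markers on a list that includes adiponectin were detected, and all 12 were lower (edgeR, adjusted p under 0.05), their summed level running from 18500 to 19600 CPM over the siErk3 libraries and from 32000 to 34200 CPM over the siNTC libraries. All 12 interferon-stimulated genes listed were higher, with sums of 4570 to 4720 CPM in siErk3 cells and 112 to 123 CPM in siNTC cells. Some of the 12 were under 1 CPM in every siNTC library and had rows only through the siErk3 libraries. Of 9 macrophage and leukocyte markers only Csf1r, Cd68 and Cd14 had rows, summing to 20.4 to 25 CPM in siErk3 cells and 9.89 to 14.5 CPM in siNTC cells, while Ptprc, Adgre1 and Itgam had none. Of 6 preadipocyte markers 5 had rows, with Dlk1, Pdgfra, Pdgfrb and Thy1 lower and Ly6a higher, and they summed to 330 to 356 CPM in siErk3 cells and 112 to 123 CPM in siNTC cells, of which Ly6a was 307 CPM in siErk3 cells and 3.47 CPM in siNTC cells. Of 5 endothelial markers only Pecam1 had a row, and it did not pass the threshold. The part of the adipocyte, interferon, macrophage and preadipocyte genes in the receptor values was not tested.

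Among the 9 receptor genes, 5 were lower, 1 was higher and 3 did not pass an adjusted p of 0.05, with a median log2 fold change of -0.35. Over all genes tested, 48.7% passed the same threshold, 23.8% as lower and 24.9% as higher. The CPM of the groups did not overlap for 6 of the 9 genes, against 43.2% of all genes tested. Because the set was chosen from this contrast, nothing is read from these shares. Summed over the 9 genes, the level was 300.0 ± 6.99 CPM in siErk3 cells and 441 ± 5.42 CPM in siNTC cells (SD, n = 4 each). Without Ffar4 it was 292 ± 7.11 CPM in siErk3 cells and 380.0 ± 8.03 CPM in siNTC cells.

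**Figure D1:**
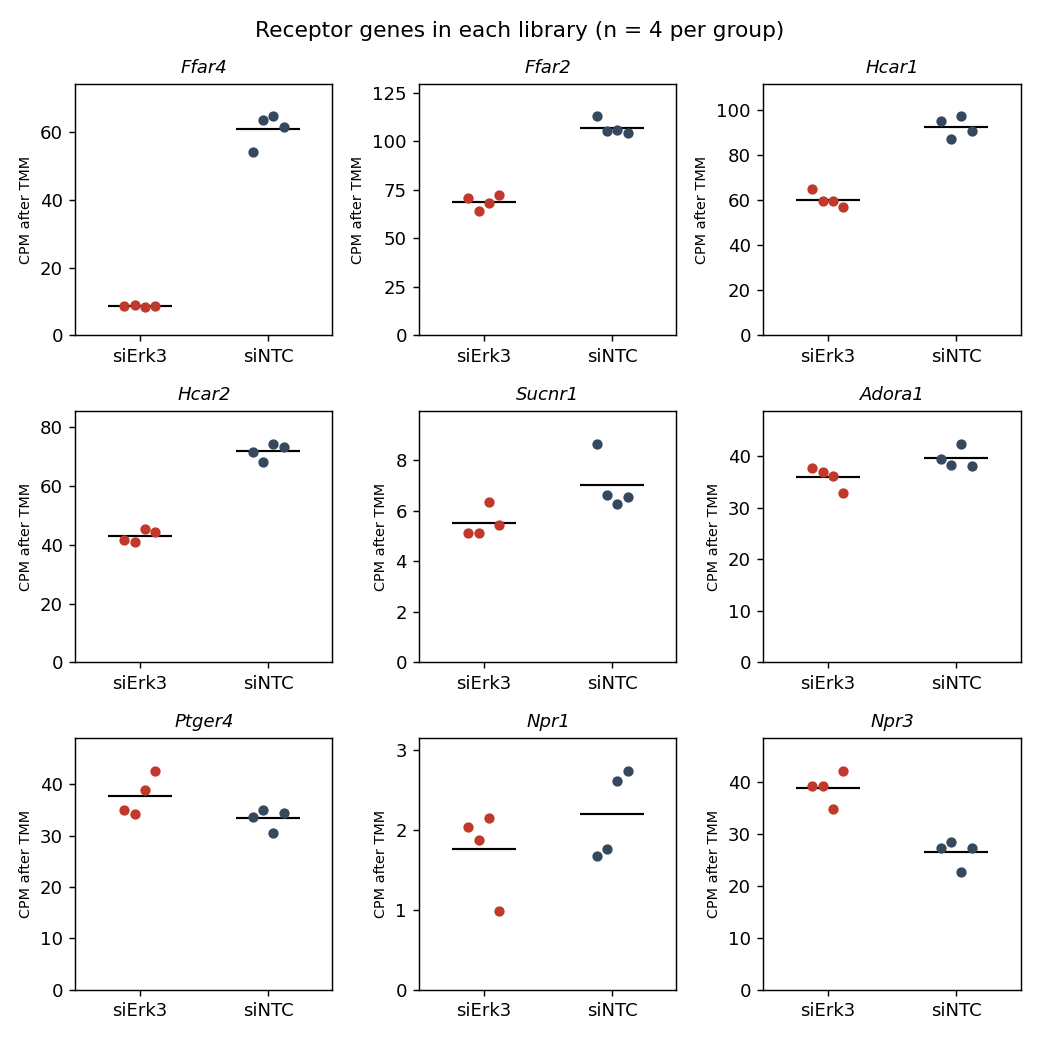
CPM after TMM scaling of the 9 measured receptor genes, with 1 panel per gene, 1 point per library and a line at the mean of the 4 libraries. Each axis starts at 0. Ffar4 lies between 8.27 and 8.88 CPM in siErk3 cells and between 54.2 and 64.7 CPM in siNTC cells, and Npr3 is the one gene of the 9 that is higher in siErk3 cells without overlap.

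Promoters are shown for the genes that differed most in each direction, Ffar4 and Npr3, and for Ffar2 and Hcar1, which share a short motif. The sequences are RefSeq (GRCm38.p6) and run from 250 bases before the start of the transcript to 50 bases after it, read 5′ to 3′ on the strand of the gene. Starts are those of RefSeq, and for Npr3 the whole window lies upstream of the gene coordinates given below. Capitals mark matches to any of the motifs listed after them.
Ffar4 (chr19:38096829-38097128, plus strand): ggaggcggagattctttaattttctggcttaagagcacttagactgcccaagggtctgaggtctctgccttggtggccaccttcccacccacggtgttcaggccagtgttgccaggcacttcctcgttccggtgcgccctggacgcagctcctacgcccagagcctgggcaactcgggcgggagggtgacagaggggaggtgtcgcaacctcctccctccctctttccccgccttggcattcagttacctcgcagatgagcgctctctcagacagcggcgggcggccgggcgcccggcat
Ffar2 (chr7:30823726-30824025, minus strand): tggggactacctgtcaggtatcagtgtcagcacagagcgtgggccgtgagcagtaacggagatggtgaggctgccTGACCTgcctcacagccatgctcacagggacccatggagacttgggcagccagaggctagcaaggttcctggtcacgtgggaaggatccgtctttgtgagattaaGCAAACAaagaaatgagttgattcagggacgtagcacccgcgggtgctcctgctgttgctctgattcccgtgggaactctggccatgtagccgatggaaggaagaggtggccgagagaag
Hcar1 (chr5:123879954-123880253, minus strand): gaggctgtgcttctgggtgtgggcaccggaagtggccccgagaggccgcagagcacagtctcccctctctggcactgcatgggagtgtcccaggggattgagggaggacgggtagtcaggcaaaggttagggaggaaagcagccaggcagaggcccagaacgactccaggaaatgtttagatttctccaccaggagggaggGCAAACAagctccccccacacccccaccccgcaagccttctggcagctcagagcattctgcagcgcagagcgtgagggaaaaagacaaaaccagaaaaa
Npr3 (chr15:11907322-11907621, minus strand): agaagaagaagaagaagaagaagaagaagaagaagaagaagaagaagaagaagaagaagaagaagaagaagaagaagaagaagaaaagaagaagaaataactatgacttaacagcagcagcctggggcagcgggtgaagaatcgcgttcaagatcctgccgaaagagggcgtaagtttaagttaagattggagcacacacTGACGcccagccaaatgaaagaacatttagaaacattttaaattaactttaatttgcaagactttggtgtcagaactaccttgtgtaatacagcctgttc

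The motifs were searched on both strands in the promoters of 9 of the 10 genes. Hcar2 is the gene with no promoter in the table. The forkhead variant TGTTTGC, read as GCAAACA on the gene's strand, lay at -70 in the Ffar2 promoter and at -49 in the Hcar1 promoter, positions being those of the first base relative to the start. It occurred in 5.07% of 32851 promoters of the same length. Ffar2 also held the nuclear receptor half-site AGGTCA, read as TGACCT, at -175, a motif present in 16.3% of promoters. Npr3 held the cyclic AMP response element half-site TGACG at -50 from its RefSeq start, a motif present in 20.8% of promoters. The forkhead consensus TGTTTAC (3.65% of promoters) and the interferon-stimulated response element (3.44%) matched in none of the 9 promoters. The pattern TTGCNNCAA (2.08%), searched as a C/EBP site, also matched in none of the 9. It was the only spelling and spacing searched for C/EBP. Whether these promoters hold C/EBP sites of another spelling or spacing was not tested. The Ffar4 window held no match to any of the 6 motifs as searched. TGTTTGC and TGTTTAC differ at one base and cannot match at the same place. A match is a run of letters and was not tested for binding.

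Ffar4 (ENSMUSG00000054200; mm10 chr19:38097071-38114263, 3 exons, plus strand) encodes the receptor for long-chain fatty acids that is abundant in mature adipocytes. It was covered by 89, 90, 85 and 87 reads in the siErk3 libraries and by 520, 617, 620 and 586 reads in the siNTC libraries. After scaling these were 8.60, 8.88, 8.27 and 8.60 CPM in siErk3 cells, against 54.2, 63.7, 64.7 and 61.6 CPM in siNTC cells. Every siErk3 library lay far under the lowest siNTC library, and the siErk3 libraries were within 1 CPM of each other. The log2 fold change was -2.83 (SE 0.08, 95% interval -3.00 to -2.66), which is 7.10-fold lower and leaves 14.1% of the siNTC level. Of all genes tested, 7 had a lower log2 fold change. The value lay between -2.90 and -2.74 over the 15 alternative settings, which include leaving out each library.

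The other free fatty acid receptor differed far less. Ffar2 (ENSMUSG00000051314; chr7:30818348-30823775, minus strand) responds to the short-chain fatty acids acetate and propionate. It had 70.8, 64.0, 68.1 and 72.3 CPM in siErk3 cells, against 112.7, 105.4, 105.9 and 104.0 CPM in siNTC cells. The groups were well apart, and all siErk3 libraries stood at about the same level. The log2 fold change was -0.64 (SE 0.06), leaving 64.3% of the siNTC level. Reads of Ffar4 per read of Ffar2 within a library, a ratio that no scaling factor affects, were 0.125 ± 0.00920 in siErk3 cells and 0.572 ± 0.0616 in siNTC cells (SD, n = 4 each), with no overlap. The relatives Ffar1 and Ffar3 had no row.

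Hcar1 and Hcar2 are neighbours on chromosome 5, both on the minus strand and 11236 bases apart, and share 0 stretches of 25 bases. Hcar1 (ENSMUSG00000049241; chr5:123876736-123880020), the lactate receptor, had 64.8, 59.4, 59.5 and 57.0 CPM in siErk3 cells, against 95, 87.2, 97.2 and 90.9 CPM in siNTC cells. Hcar2 (ENSMUSG00000045502; chr5:123863570-123865499), which binds the ketone body β-hydroxybutyrate and nicotinic acid, had 41.5, 41.0, 45.2 and 44.4 CPM in siErk3 cells, against 71.6, 68.2, 74.3 and 73.1 CPM in siNTC cells. Neither gene overlapped between the groups. The log2 fold changes were -0.62 (SE 0.06) for Hcar1 and -0.74 (SE 0.06) for Hcar2, leaving 65.0% and 59.9% of the siNTC level. The ratio of Hcar2 to Hcar1 reads was 0.717 ± 0.0646 in siErk3 cells and 0.776 ± 0.0222 in siNTC cells (SD, n = 4 each), and it overlapped between the groups. Both genes are single exons in the annotation.

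Sucnr1 (ENSMUSG00000027762; chr3:60081869-60087566, plus strand), the receptor for extracellular succinate, was present at a low level. It had 5.12, 5.13, 6.33 and 5.44 CPM in siErk3 cells, against 8.64, 6.61, 6.26 and 6.52 CPM in siNTC cells. The groups overlapped, since siErk3 replicate 3 was above the lowest siNTC library, and siNTC replicate 1 stood above the rest. The log2 fold change of -0.35 (SE 0.14, 95% interval -0.64 to -0.06) lay just past the threshold and was on the other side of it in 8 of 15 alternatives. Without siNTC replicate 1 it was -0.23, and it was also no longer past the threshold without siErk3 replicate 1 (-0.31), siErk3 replicate 2 (-0.32), siErk3 replicate 4 (-0.34) or siNTC replicate 4 (-0.38).

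**Figure D2:**
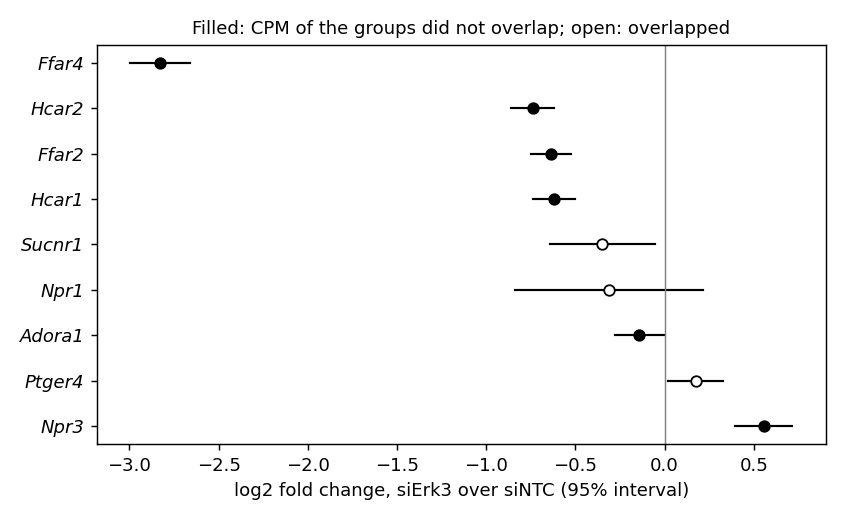
Log2 fold change, siErk3 over siNTC, of the 9 receptor genes with 95% intervals from the edgeR fit, sorted with the lowest at the top. Filled points mark genes whose CPM did not overlap between the groups. Ffar4 stands alone at -2.83, Hcar2, Ffar2 and Hcar1 lie between -0.74 and -0.62, and Npr3 at 0.56 is the highest.

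The adenosine and prostaglandin receptors differed little. Adora1 (ENSMUSG00000042429; chr1:134199223-134235431, minus strand), which couples adenosine to inhibitory G proteins, had 37.7, 36.9, 36.1 and 32.7 CPM in siErk3 cells, against 39.4, 38.3, 42.4 and 38.1 CPM in siNTC cells. All siErk3 libraries were under all siNTC libraries only after scaling, and by little. The reads overlapped, at 331 to 390 in siErk3 libraries and 362 to 406 in siNTC libraries. The log2 fold change of -0.14 (SE 0.07) did not pass the threshold. It was -0.21 with upper-quartile factors, the one setting in which it passed, and -0.05 with library sizes only. On the opposite strand Mybph covers 20.1% of its exon bases, and as the library kit does not mark strand, reads of both genes cannot be told apart there. Mybph had a log2 fold change of -0.14 (edgeR, adjusted p = 0.293).

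Ptger4 (ENSMUSG00000039942; chr15:5206661-5244187, minus strand), the prostaglandin E2 receptor that stimulates adenylyl cyclase, had 35, 34.3, 38.9 and 42.6 CPM in siErk3 cells, against 33.6, 34.9, 30.6 and 34.4 CPM in siNTC cells. The groups overlapped through siErk3 replicate 2, and siErk3 replicates 3 and 4 stood well above every siNTC library. The log2 fold change of 0.18 (SE 0.07, 95% interval 0.02 to 0.33) did not pass the threshold, but did so in 4 of 15 alternatives, with values of 0.26 for library sizes only, 0.21 without siErk3 replicate 1, 0.22 without siErk3 replicate 2 and 0.20 without siNTC replicate 2. It was 0.10 with upper-quartile factors and 0.11 without siErk3 replicate 4. Its exons share bases with Ttc33 (1.23% of them; log2 fold change 0.16, edgeR, adjusted p = 0.0709) and with the pseudogene Gm15937 (15.3%), which was not tested.

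The natriuretic peptide receptors stood at different levels. Npr1 (ENSMUSG00000027931; chr3:90450591-90465866, minus strand), the guanylyl cyclase that answers atrial and B-type natriuretic peptide, was covered by 10 to 22 reads in the siErk3 libraries and 16 to 26 in the siNTC libraries. It had 2.03, 1.88, 2.14 and 0.989 CPM in siErk3 cells, against 1.67, 1.76, 2.61 and 2.73 CPM in siNTC cells. The groups overlapped widely, and with a log2 fold change of -0.31 (SE 0.25, 95% interval -0.84 to 0.22) no difference was detectable at this depth. Without siErk3 replicate 4 the value was -0.12, and without siNTC replicate 4 it was -0.19. The antisense gene Gm16048 covers 11.7% of its exon bases.

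Npr3 (ENSMUSG00000022206; chr15:11839896-11907287, minus strand), the clearance receptor that takes up and degrades natriuretic peptides, had 39.2, 39.4, 34.9 and 42.2 CPM in siErk3 cells, against 27.3, 28.5, 22.8 and 27.3 CPM in siNTC cells. Each siErk3 library was above the highest siNTC library. The log2 fold change was 0.56 (SE 0.08, 95% interval 0.40 to 0.72), or 1.47-fold, and it stayed between 0.49 and 0.64 over the 15 alternatives. The noncoding gene Gm5144 shares 3.42% of its exon bases and had a log2 fold change of 0.22 (edgeR, adjusted p = 0.502). Reads per kilobase of Npr3 over those of Npr1 gave ratios of 9.85, 10.7, 8.31 and 21.8 in siErk3 cells, against 8.34, 8.27, 4.44 and 5.09 in siNTC cells. The ratio was larger in most siErk3 libraries, with a slight overlap, and rests on the few Npr1 reads.

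To compare levels between genes, CPM were divided by the kilobases of merged exons. In siErk3 cells the order was Ffar2 at 24.7 ± 1.31 CPM per kb, Hcar2 at 22.3 ± 1.09, Hcar1 at 18.3 ± 1.01, Adora1 at 6.20 ± 0.377, Ffar4 at 6.13 ± 0.178, Ptger4 at 5.67 ± 0.583, Npr3 at 4.15 ± 0.320, Sucnr1 at 3.36 ± 0.346 and Npr1 at 0.368 ± 0.110 (SD, n = 4). Here the library ranges of Ffar2 and Hcar2 overlapped, as did those of Adora1, Ffar4 and Ptger4, and those of Npr3 and Sucnr1. In siNTC cells it was Ffar4 at 43.6 ± 3.41 CPM per kb, Ffar2 at 38.4 ± 1.39, Hcar2 at 37.2 ± 1.38, Hcar1 at 28.2 ± 1.35, Adora1 at 6.83 ± 0.341, Ptger4 at 5.02 ± 0.292, Sucnr1 at 4.27 ± 0.671, Npr3 at 2.82 ± 0.271 and Npr1 at 0.458 ± 0.117 (SD, n = 4). In siNTC cells neighbours whose ranges overlapped were Ffar4 and Ffar2, Ffar2 and Hcar2, and Ptger4 and Sucnr1. Per length, Ffar4 thus stood first in siNTC cells and level with Adora1 in siErk3 cells, while Ffar2, Hcar2 and Hcar1 kept the same order among themselves. This order rests on the exon lengths used. In CPM, Ffar4 in siNTC cells (61.1) was under Ffar2 (107), Hcar1 (92.6) and Hcar2 (71.8). In siErk3 cells it had 8.59 CPM, against 35.9 CPM for Adora1. Ffar4 made up 2.86 ± 0.131% of the summed CPM of the 9 genes in siErk3 cells and 13.8 ± 1.13% in siNTC cells (SD, n = 4 each).

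**Figure D3:**
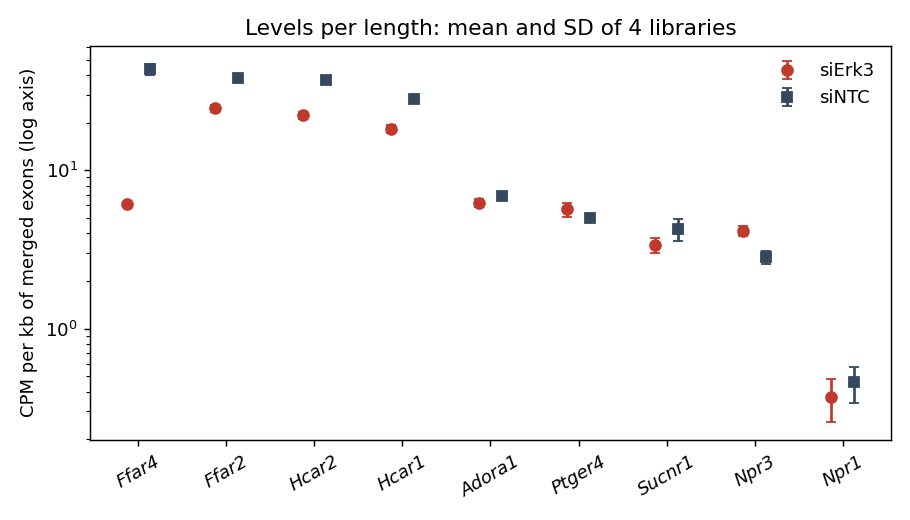
Level of each receptor gene in CPM per kilobase of merged exons on a log axis, as the mean and SD of 4 siErk3 libraries (circles) and 4 siNTC libraries (squares), ordered by the siNTC level. Ffar4 is at 6.13 in siErk3 cells and 43.6 in siNTC cells, while Adora1 (6.20 and 6.83), Ptger4 (5.67 and 5.02) and Npr1 (0.368 and 0.458) each lie near their own siNTC level.

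The genes whose pattern over the 8 libraries was most like that of Ffar4 were Dlk1, Ptn and Sned1, taken by the smallest root mean square difference in log2 CPM, each relative to its own siNTC mean, over the 17810 genes that averaged 1 CPM or more. The differences from Ffar4 were 0.12 for Dlk1, 0.14 for Ptn and 0.15 for Sned1 on the log2 scale. Dlk1, a transmembrane protein of preadipocytes, had 7.71 ± 0.729 CPM in siErk3 cells and 51.1 ± 3.12 CPM in siNTC cells (SD, n = 4 each). Ptn, a secreted heparin-binding growth factor, had log2 fold change -2.92 and Sned1, an extracellular matrix protein, -2.86.

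The lists from here on were chosen with earlier results of these data known, so their counts and p-values are given as a description. Most receptors for related ligands had no row in the table. Of 21 genes listed, 6 had rows, of which 2 were lower, 1 was higher and 3 did not pass (edgeR, adjusted p under 0.05), with a median log2 fold change of 0.09. That is 50% past the threshold, against 48.7% of all genes tested (23.8% lower, 24.9% higher). The cannabinoid receptor Cnr1 was lower at -1.22 (SE 0.26, adjusted p = 0.000420), as was Npr2, the guanylyl cyclase for C-type natriuretic peptide, at -0.36 (SE 0.07, adjusted p = 8.69e-05). The prostacyclin receptor Ptgir was higher at 0.85 (SE 0.23, adjusted p = 0.00361). Cnr1 and Ptgir were both near the floor. Cnr1 had 0.929 CPM in siErk3 cells (6 to 11 reads) and 2.19 CPM in siNTC cells (18 to 25 reads). Ptgir had 2.64 CPM in siErk3 cells and 1.46 CPM in siNTC cells. The prostaglandin receptors Ptger1 (0.13) and Ptgfr (0.06) did not pass. None of the receptors Adra2a, Npy1r, Ptger2 and Adora2a had a row.

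Downstream of the receptors, 31 of 36 listed G protein subunits, regulators and arrestins were tested. Of these, 13 were higher, 8 were lower and 10 did not pass (edgeR, adjusted p under 0.05), with a median log2 fold change of 0.12. The share past the threshold was 67.7%, against 48.7% of all genes tested (23.8% lower, 24.9% higher). The stimulatory subunit Gnas was higher at 0.30 (SE 0.05), Gnaq, the subunit that activates phospholipase C, at 0.15 (SE 0.05), and the β subunit Gnb1 at 0.24 (SE 0.05). With upper-quartile factors Gnaq was 0.08 and did not pass. Gnao1, an α subunit of the inhibitory class, was lower at -0.37 (SE 0.05), Gna11 at -0.31 (SE 0.06) and Gnb5 at -0.62 (SE 0.06). The inhibitory subunit Gnai2, singled out after its values were seen, was higher at 0.40, with 185 CPM in siErk3 cells and 140.0 CPM in siNTC cells. Map3k7, which encodes the TAK1 kinase held in check by Ffar4 and β-arrestin in macrophages, was lower at -0.70 and was likewise singled out afterwards.

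In the cyclic AMP branch, which the inhibitory receptors act on, 19 of 20 genes were tested, and 9 were lower, 3 higher and 7 not past the threshold (edgeR, adjusted p under 0.05), with a median log2 fold change of -0.19. The branch had 63.2% past the threshold, and all genes tested had 48.7% (23.8% lower, 24.9% higher). Pde3b, the phosphodiesterase through which insulin lowers cyclic AMP, fell to 188 CPM in siErk3 cells, 47.9% of its level in siNTC cells (log2 fold change -1.06, SE 0.07, adjusted p = 2.29e-11). Prkar2b, the main regulatory subunit of protein kinase A in adipocytes, was lower at -0.84 (SE 0.06), and the cyclase Adcy6 at -0.19 (SE 0.05). The phosphodiesterases Pde7a (0.75) and Pde4a (0.50) and the receptor Adrb1 (0.49) were higher. Adrb1 was at a low level, with 3.45 CPM in siErk3 cells and 2.45 CPM in siNTC cells. With library sizes only Adcy6 was -0.10 and did not pass, and Adrb1 did not pass with upper-quartile factors (0.42), DESeq2 (0.49), or without siErk3 replicate 3 (0.46), siErk3 replicate 4 (0.48) or siNTC replicate 3 (0.38). Prkaca (-0.10) and Prkar1a (0.04) did not pass. The β3-adrenergic receptor Adrb3, singled out after its values were seen, was lower at -1.31, with 79.9 CPM in siErk3 cells and 198 CPM in siNTC cells.

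In the cyclic GMP branch only 6 of 16 genes had rows, with 3 higher, 1 lower and 2 not past the threshold (edgeR, adjusted p under 0.05) and a median log2 fold change of 0.08. Past the threshold were 66.7% of these 6 genes and 48.7% of all genes tested (23.8% lower, 24.9% higher). Pde2a, a phosphodiesterase that cyclic GMP stimulates, was higher at 0.82 (SE 0.10), Vasp, a substrate of protein kinase G, at 0.37 (SE 0.06), and the protease Furin at 0.22 (SE 0.05). Neprilysin, encoded by Mme and able to degrade natriuretic peptides, was lower at -0.88 (SE 0.21). Its level was low, at 1.71 CPM in siErk3 cells and 3.15 CPM in siNTC cells. The kinases Prkg1 (-0.07) and Prkg2 (-0.26) did not pass.

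Of 32 enzymes and carriers that make, move or remove the ligands, 27 were tested: 14 were lower, 6 higher and 7 not past the threshold (edgeR, adjusted p under 0.05), with a median log2 fold change of -0.16. Among the 27, 74.1% passed, against 48.7% of all genes tested (23.8% lower, 24.9% higher). Lactate dehydrogenase Ldha fell to 520 CPM in siErk3 cells, against 916 CPM in siNTC cells (-0.82, SE 0.05, adjusted p = 5.25e-12). Sdha, the succinate dehydrogenase subunit that oxidises succinate, was lower at -0.37 (SE 0.05), and Oxct1, which activates ketone bodies for oxidation, at -0.19 (SE 0.05). Cytosolic phospholipase A2 (Pla2g4a), which releases arachidonic acid for prostaglandin synthesis, rose to 34.4 CPM in siErk3 cells, against 11.3 CPM in siNTC cells (1.6, SE 0.08, adjusted p = 5.38e-14). The exporter Abcc4 was higher at 0.49 (SE 0.07) and the prostaglandin E synthase Ptges3 at 0.18 (SE 0.06). Ptges3 did not pass with upper-quartile factors (0.12) or without siErk3 replicate 2 (0.16), siNTC replicate 1 (0.16) or siNTC replicate 2 (0.15), and Oxct1 did not pass with library sizes only (-0.10). The adipocyte phospholipase Plaat3 (-0.03) and Suclg2 (-0.01) did not pass. The cyclooxygenase genes Ptgs1 (0.89) and Ptgs2 (2.23) were both higher and were named after their values were seen. Ptgs2 was near the floor, with 3.11 CPM in siErk3 cells and 0.65 CPM in siNTC cells (2 to 9 reads). Ptgs2 and Slco2a1, both counted among the 6 higher genes, were under 1 CPM in every siNTC library. They had rows only through the siErk3 libraries, so that count was in part set by which genes the deposited counts held.

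**Figure D4:**
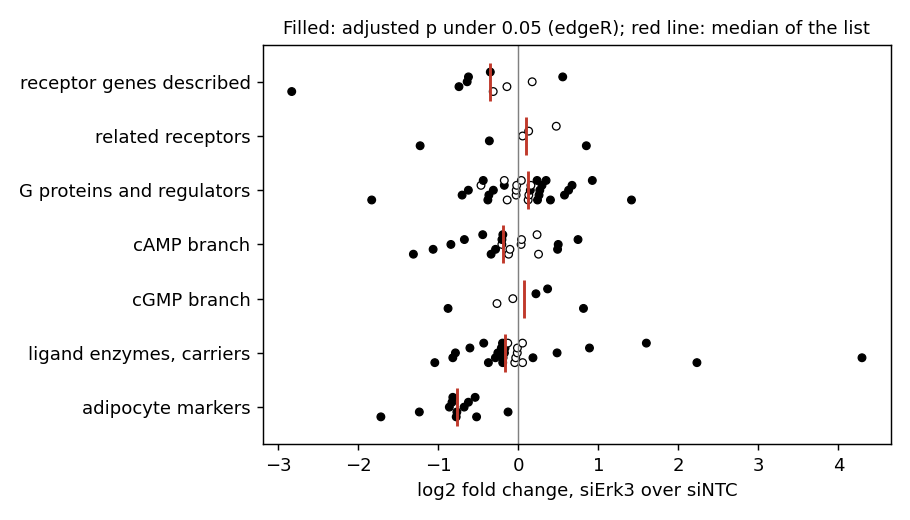
Log2 fold change, siErk3 over siNTC, of every tested gene of the receptor set, 5 lists of genes around the receptors and the adipocyte markers, 1 point per gene, with the list's median as a red line. Filled points passed an adjusted p of 0.05 in edgeR. The medians are -0.35 for the receptors described, 0.12 for G proteins and regulators, -0.16 for ligand enzymes and carriers and -0.77 for the adipocyte markers.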

How the data were processed

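Per the labels and the study's methods, RNA was made into libraries with a kit that does not mark strand and sequenced on a NextSeq 500. The submitters' processing notes name bcl2fastq, FastQC, Bowtie2, edgeR and mm10. The counting program and its annotation are not given in the sources used here. The authors deposited raw read counts for 18088 genes, of which 452 have no symbol, and in the file every gene exceeded 1 CPM in 4 libraries or more. A gene under 1 CPM throughout 1 group could therefore have a row only through the other group. Whether genes with no row were left out for low counts cannot be told from these counts. The authors also deposited a table of log2 fold changes, average log2 CPM and p-values, which was not used.

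Counts were tested with edgeR 4.0.16 in R 4.3.3 (filterByExpr, TMM factors, quasi-likelihood test of siErk3 against siNTC, Benjamini-Hochberg adjustment over 17972 genes, threshold 0.05). The fit was tested on simulated data in which far fewer genes changed than were called here. That run cannot show how the fit behaves when so many genes differ. The common biological coefficient of variation was 6.08%. Gene lengths and overlaps came from GENCODE mouse release 21 on the same build, and promoters from RefSeq. Replicate libraries differed beyond counting noise (chi-square per gene 1.97 to 8.30 over 12 pairs). Alternatives were RLE or upper-quartile factors, library sizes only, DESeq2 1.42.0, no filter, a 5 CPM filter, a replicate block and leaving out each library.

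The receptor genes, the lists and the motifs were chosen with earlier results of these data known. Named genes were the receptors, Mapk6, from each list at most 3 genes past the threshold per direction and 2 not past it in order of mean CPM, genes overlapping a receptor gene, and the 3 most like Ffar4. Named outside this rule, after their values were seen, were Gnai2, Map3k7, Adrb3, Ptgs1, Ptgs2 and Slco2a1.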

Additional observations from a re-analysis of the deposited data

Results flagged for a closer look

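In groups of 4 libraries, the highest or lowest library was set against the other 3, and 6 of 118 groups from 59 genes held one that stood apart by Dixon's criterion, where about 1 in 20 groups, here 5.90, does so by chance. Sucnr1 was at 8.64 CPM in siNTC replicate 1, against 6.26 to 6.61 CPM in the other siNTC libraries. Mme was at 4.17 CPM in siNTC replicate 1, with the others at 2.71 to 2.95 CPM. In siNTC replicate 3, Rgs2 was at 146 CPM (others 173 to 178), Pde3b at 316 CPM (others 410.0 to 429) and Dlk1 at 55.7 CPM (others 48.9 to 50). Lpl was at 6800 CPM in siErk3 replicate 4, with the others at 5890 to 5990 CPM.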

How the results depend on the processing

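Over the 15 alternatives the log2 fold change ran from -2.90 to -2.74 for Ffar4, -0.71 to -0.55 for Ffar2, -0.69 to -0.53 for Hcar1, -0.81 to -0.65 for Hcar2 and 0.49 to 0.64 for Npr3, given as a description since the set was chosen from this contrast. Npr1 was not tested with the 5 CPM filter and did not pass in the other 14. None of the 9 receptor genes changed sign. Of 44 other genes given with a fold change, 39 kept their sign and 30 also their side of the threshold in every alternative that could be run. Past the threshold in some alternatives, though not as reported, were Ptger1, Prkaca, Prkg2 and Ttc33 (2 each) and Prkar1a and Prkg1 (1 each). The 5 that changed sign were near 0 and not past the threshold, both as reported and where the sign changed. With upper-quartile factors Ptgfr was -0.015 and Prkar1a -0.028. With library sizes only Prkg1 was 0.021, Plaat3 0.056 and Suclg2 0.075. Leaving out 1 library gave -0.013 to 0.114 for Ptgfr and -0.038 to 0.009 for Suclg2. The median over all genes, 0.001, was -0.003 with RLE factors and with DESeq2, -0.069 with upper-quartile factors and 0.087 with library sizes only. With library sizes only, 2 receptor genes and 2 related receptors were higher (1 each in the main result), 5 cyclic AMP genes were higher (3) and 7 ligand genes were lower (14). With upper-quartile factors, 3 cyclic GMP genes were lower (1). With the 5 CPM filter, which tests fewer genes, 0 related receptors were higher, 1 was lower (2), and 0 cyclic GMP genes were lower. Leaving out 1 library gave 1 to 2 higher receptor genes, 4 to 5 lower ones, 1 to 2 higher related receptors, 1 to 2 lower cyclic GMP genes, 2 to 4 higher cyclic AMP genes, and 4117 to 4350 higher and 3839 to 4131 lower genes in all. The cause of these shifts was not tested beyond that.

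Replicate numbers did not pair the libraries: same-numbered libraries correlated in their deviations at 0.02, 0.00, 0.07 and -0.01, and not every library correlated best with its own number. With a replicate block, 4501 genes were higher and 4292 lower, and of the receptor genes Sucnr1 (-0.35) was no longer past the threshold. Sucnr1 also missed it with DESeq2 (-0.35) and with library sizes only (-0.26). Limits remain in depth for genes at a few CPM, such as Npr1, Sucnr1, Cnr1, Ptgir, Adrb1, Mme and Ptgs2. They also remain in strand for genes with antisense neighbours, and in that mRNA levels say nothing of receptor protein or ligand.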
